A study of Mus musculus with 6 samples.

Results

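The accessible landscape described here is that of E14 mouse embryonic stem cells held in 2iL, and its members are all 91228 intervals of the 2iL peak list, of 258093 intervals in the 3 lists of the series. Accessibility was measured by ATAC-seq, in which a transposase cuts open chromatin and inserts sequencing adapters, so that reads pile up where DNA is not packed away. The 2iL medium is serum-free N2B27 with CHIR99021, which inhibits the kinase GSK3, PD0325901, which inhibits the kinase MEK, and the cytokine LIF. The other groups are the same E14 line in N2B27 alone, collected 48 h or 96 h from the change of medium. Each group had 2 samples, A and B, and 1 peak list for both together. The spread between replicates could therefore not be measured, and no test between groups was made. The labels do not say whether A and B came from separate cultures, and E14 is a single cell line. Ranges in brackets are 95% confidence limits by the exact Clopper-Pearson method. They reflect counting error alone, as if neighbouring intervals were independent.

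Cells in 2iL are taken as a model of the ground state, the naive pluripotency of the epiblast before implantation. Inhibition of GSK3 stabilises beta-catenin and relieves repression by the transcription factor TCF7L1, inhibition of MEK blocks the FGF/ERK signal that drives cells out of the naive state, and LIF acts through STAT3. The factors OCT4 (Pou5f1), SOX2 and NANOG, with ESRRB, KLF2, KLF4, KLF5, TFCP2L1, TBX3 and others, bind together at promoters and distal enhancers of a shared set of genes. Open chromatin at a distal site is a common sign of such an enhancer, although accessibility alone does not say which gene, if any, the site acts on.

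The 91228 intervals covered 66.8 Mb of the mm10 genome and held 187330 summits, the positions of highest signal, at 2.05 per interval. An interval was placed by its best summit, the one with the highest −log10 p in the deposited list. The fold enrichment at that summit, which like p and score is the authors' value, had a median of 8.29, with the middle 50% of intervals between 5.96 and 12.04 and a maximum of 43.5. Intervals called strong or weak below are ranked by fold. The −log10 p, with a median of 113, can rank them differently. Of all intervals, 69709 (76.4%) carried the score of 1000, and the lowest score was 540. The background most often recovered from fold and p was 14.2 tags per position in 2iL, 15.2 at 48 h and 13.99 at 96 h. In 2iL 38134 of the 164321 summits solved had this value, so the background varied among sites. Over the 87.7% of 2iL summits with −log10 p under 290, the median was 149 tags. Stronger summits entered neither this median nor the background. The later lists held 88810 and 78055 intervals.

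Promoter sequences are shown first, because a minority of intervals lay at gene starts but most CpG-rich promoters carried one. RefSeq (GRCm38.p6, the same assembly as mm10) supplied windows of 300 bases, from 250 before to 50 after a transcription start, for 21263 starts of 17492 protein-coding genes. The 150 bases before the start are printed for 8 starts of pluripotency genes that span the range from few to many CpG dinucleotides, including the alternative starts of Esrrb and Nr5a2 that differed in accessibility. Sequences run 5′ to 3′ on the gene's strand, and capitals mark CpG.
Tet2, chr3:133544391-133544540, minus strand: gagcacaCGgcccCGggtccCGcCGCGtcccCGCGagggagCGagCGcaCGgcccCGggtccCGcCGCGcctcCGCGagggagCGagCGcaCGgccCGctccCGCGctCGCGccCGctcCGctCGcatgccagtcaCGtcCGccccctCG
Klf4, chr4:55532476-55532625, minus strand: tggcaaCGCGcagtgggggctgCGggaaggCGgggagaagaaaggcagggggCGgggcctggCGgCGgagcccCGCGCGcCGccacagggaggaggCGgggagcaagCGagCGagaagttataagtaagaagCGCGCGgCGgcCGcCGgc
Zfp42, chr8:43307010-43307159, minus strand: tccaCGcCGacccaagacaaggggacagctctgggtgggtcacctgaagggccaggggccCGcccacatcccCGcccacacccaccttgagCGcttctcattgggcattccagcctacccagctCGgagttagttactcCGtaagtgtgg
Pou5f1, chr17:35505882-35506031, plus strand: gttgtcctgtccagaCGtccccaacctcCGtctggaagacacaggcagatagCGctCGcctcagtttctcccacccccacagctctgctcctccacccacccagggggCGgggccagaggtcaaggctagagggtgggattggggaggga
Nanog, chr6:122707339-122707488, plus strand: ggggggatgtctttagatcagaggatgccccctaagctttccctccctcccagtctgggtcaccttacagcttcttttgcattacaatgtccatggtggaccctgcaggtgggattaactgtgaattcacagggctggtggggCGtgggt
Esrrb at the gene's outer end, chr12:86360967-86361116, plus strand: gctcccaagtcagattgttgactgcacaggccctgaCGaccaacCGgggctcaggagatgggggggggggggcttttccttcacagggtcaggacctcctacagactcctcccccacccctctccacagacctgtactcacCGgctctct
Esrrb at its inner start, chr12:86421494-86421643, plus strand: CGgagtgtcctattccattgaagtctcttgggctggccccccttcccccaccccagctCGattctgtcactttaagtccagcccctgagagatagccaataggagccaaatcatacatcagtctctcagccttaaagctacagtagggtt
Nr5a2 at its inner start, chr1:136953631-136953780, minus strand: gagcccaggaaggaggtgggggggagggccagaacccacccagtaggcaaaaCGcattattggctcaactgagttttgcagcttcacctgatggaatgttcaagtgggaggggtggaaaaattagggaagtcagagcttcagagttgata

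The 8 sequences differ widely in CpG. Over the whole 300-base window, Tet2 had 57 CpGs, Klf4 40, Zfp42 and Pou5f1 11 each, both Esrrb starts and the inner Nr5a2 start 7 each, and Nanog 4. A 2iL interval overlapped 7 of these 8 windows. The exception was the outer start of Esrrb, which no 2iL interval overlapped although intervals of the 48 h and 96 h lists did. At the inner Esrrb start an interval 1602 bp wide, with a fold of 8.66, was listed in 2iL and overlapped intervals of both later lists. At the inner start of Nr5a2 a 621 bp interval of fold 3.88 was listed in 2iL, and none overlapped its window later. That fold is in the lowest 10% of 2iL intervals, of which 45.1% overlapped no later interval. A neighbouring 2iL interval (chr1:136952737-136953349, fold 3.53) overlapped intervals of both later lists.

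Across all promoters, 13190 of 21263 windows (62.0%, 61.4 to 62.7) were overlapped by a 2iL interval. The overlapped windows held a median of 21 CpGs and 62.0% G and C, against 3 CpGs and 47% in the rest. Coverage rose steeply with CpG number. It was 3.27% (2.60 to 4.06) of windows with 0 or 1 CpG, 28.5% with 4 to 6, 56.6% with 7 to 10, 86.6% with 11 to 15 and 97.1% (96.4 to 97.7) with 31 or more. Intervals over CpG-rich windows were also wider, with a median of 1279 bp at 31 or more CpGs and 751 bp at 0 or 1. Of the covered windows, 27.9% with 0 or 1 CpG and 0.14% with 31 or more had no overlapping interval later. Nanog, with 4 CpGs, is thus 1 of the 715 covered windows among 2505 with 4 to 6 CpGs.

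**Figure D1:**
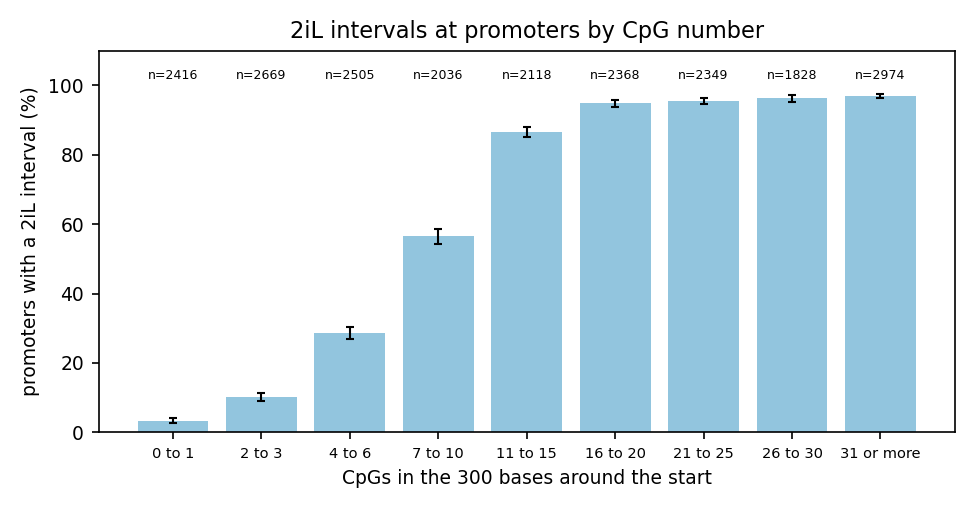
Share of 300-base promoter windows overlapped by a 2iL interval (y axis, %), by the number of CpGs in the window (x axis), with exact binomial 95% intervals as error bars and the number of windows above each bar. The share rises from 3.27% at 0 or 1 CpG to 97.1% at 31 or more.

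Short motifs divided the windows along the same line, as a letter search on both strands showed. The GC box GGGCGG, bound by SP and KLF factors, was found in 67.3% of covered windows and 11.7% of the others, and in 46.2% of all. The CCAAT box, bound by NF-Y, was found in 38.0% and 38.4%, so its presence did not separate the groups of windows. The ETS motif CCGGAAG was in 17.2% of covered and 2.43% of other windows (11.6% of all), and the NRF1 core GCATGCGC in 5.26% and 0.67% (3.52% of all). The cyclic AMP response element TGACGTCA was in 3.18% and 0.68% (2.23% of all). The TATA box TATAAA ran the other way, at 6.13% of covered and 23.2% of other windows (12.6% of all). The longest motifs searched that pluripotency factors bind were rare: the octamer ATTTGCAT, bound by POU factors such as OCT4, was in 1.44% of covered and 2.02% of other windows (1.66% of all), and the ESRRB motif TCAAGGTCA in 0.22% and 0.52% (0.33% of all). In the printed stretches the GC box was found upstream of Tet2, Klf4, Zfp42 and Pou5f1, and the CCAAT box upstream of Zfp42, Pou5f1, the inner Esrrb start and the inner Nr5a2 start. GC box, ETS, NRF1 and cyclic AMP motifs contain CpG, so they share base composition with the CpG count, and a match describes letters, not binding.

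Most of the 2iL landscape lay away from gene ends. An interval was called gene-end when its best summit was within 1 kb of either end of 1 of 21887 protein-coding genes, and distal otherwise. Gene-end intervals numbered 15171, or 16.6% (16.4 to 16.9), against 18.1% (17.9 to 18.4) at 48 h and 19.6% (19.3 to 19.8) at 96 h. The difference of 2iL from 48 h was −1.52 percentage points and from 96 h −2.93. With lists of equal length the difference from 96 h was −1.14. The median distance of a summit to a gene end was 13.0 kb. Inside genes, and over 1 kb from an end or a start, lay 39235 intervals (43.0%). Outside genes lay 28379 (31.1%) up to 100 kb from the nearest end and 6442 (7.06%) farther away.

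Gene-end intervals were wider, stronger and more often split into several summits than distal ones. Their median width was 1008 bp against 631 bp, a ratio of 1.60, and their median fold 11.4 against 7.90. Several summits were found in 83.1% (82.5 to 83.7) of gene-end and 55.3% (54.9 to 55.6) of distal intervals. Among intervals with 1 summit the width ratio was 1.06. Intervals within 1 kb of a RefSeq start, 11682 in all, had a median width of 1063 bp and a fold of 12.4. The 5490 at a gene end with no listed start within 1 kb had 851 bp and 8.76, and some of these ends are starts that the RefSeq table of starts does not hold. Width hardly differed among distal places, at 626 bp inside genes, 626 bp outside up to 100 kb, and 614.5 bp beyond.

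**Figure D2:**
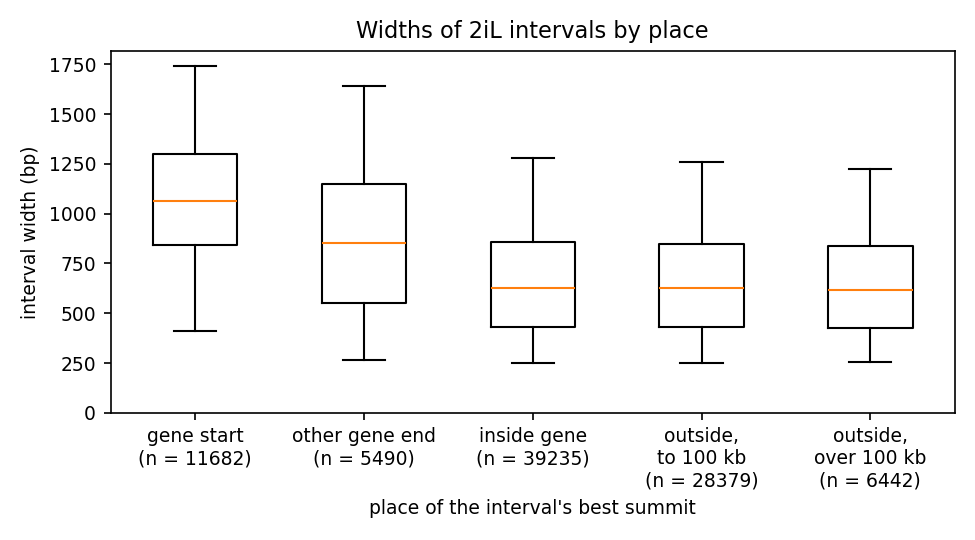
Width of 2iL intervals in bp (y axis) by the place of the best summit (x axis). Lines are medians, boxes the middle 50% and whiskers the 5th and 95th percentiles over intervals, and the medians fall from 1063 bp at gene starts to 626 bp inside genes.

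Starts, rather than gene ends in general, carried the signal. Summits within 1 kb of a start lay at a median of −34 bp, just upstream, with the middle 50% between −100 and 33 bp, and 64.6% were before the start. The fullest bin of 100 bp, from −100 to −1, held 4638 intervals, while the fullest bin around other gene ends held 166. Among 13412 genes over 5 kb long with a known strand, 9493 (70.8%, 70.0 to 71.5) had a summit within 1 kb of the start and 2322 (17.3%, 16.7 to 17.96) within 1 kb of the other end. Both ends had one in 1905 genes, and 3502 (26.1%) had none.

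**Figure D3:**
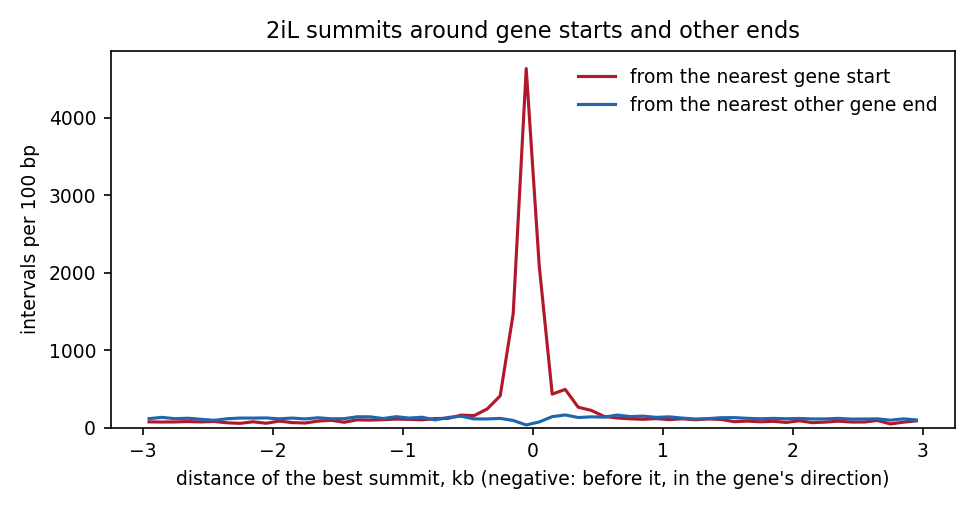
Number of 2iL intervals per 100 bp (y axis) by distance in kb of the best summit from the nearest gene start (red) and the nearest other gene end (blue), where negative is before that position in the gene's direction. The red line peaks at 4638 intervals just before the start, and the blue line stays at 166 or fewer.

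Intervals seen in 2iL and in neither later list were concentrated among distal sites. An interval was counted here when it overlapped no interval of the 48 h or 96 h list by 1 bp or more, which held for 27369 of the 91228 intervals (29.7% to 30.3%). The share was 2.69% (2.40 to 3.00) at starts, 13.7% at other gene ends, 36.9% inside genes, 31.7% outside genes up to 100 kb and 43.8% (42.6 to 45.0) farther away. Weak intervals were more often absent later: 45.1% of the 10% of intervals with the lowest fold, 47.5% of the next 10% and 6.94% of the 10% with the highest. By width the share was 33.9% in the narrowest 10%, highest at 42.4% in the next 10%, and 10.8% in the widest, so the narrowest were not the most often absent. A weak interval lies nearer the limit of listing, so a share of this kind mixes loss of signal with signal that dropped below that limit, which cannot be told apart from lists.

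Width followed the number of summits. Intervals with 1 summit, 36590 or 40.1% of all, had a median width of 416 bp, those with 2 summits 706 bp, with 3 966 bp and with 4 1214.5 bp, and the 4 intervals with 11 summits 2836 bp. Adjacent summits of an interval were a median of 270 bp apart, with the middle 50% between 237 and 326 bp over 96102 gaps. The spacing was 279 bp at gene ends and 268 bp at distal sites. Fold did not follow summit number all the way: its median was 6.97 with 1 summit, 10.5 with 4 and 5.42 with 11. The widest and the strongest intervals were therefore different ones. The 4 with 11 summits lay nearest to Cpeb2, a regulator of translation, Rims2, of synaptic vesicle release, Psd2 and Npr3, a natriuretic peptide receptor.

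None of the 10 widest intervals was among the 10 strongest. The widest, 3202 bp with 10 summits and a fold of 6.78, lay 1.28 kb from an end of Camk2n2 (chr16:20619680-20622881). Jun, a subunit of the AP-1 transcription factor, had 3065 bp at its end, and Dnmt3a, a DNA methyltransferase, had 3048 bp inside the gene. Zfp521, a zinc finger factor of neural development, had 3029 bp inside the gene and 127.3 kb from an end. It was the only 1 of the 10 widest that overlapped no later interval. The highest fold, 43.5, belonged to a 355 bp interval inside Gm31714 on chromosome 13, followed by 40.8 and 35.7 near Zfp640 and 36.4 near Gm46425 on the same chromosome. Fold at these 4 was 37.2, 20.3, 38.2 and 31.2 at 48 h, while at 96 h 2 of them were not listed and the others had 12.2 and 7.27. Zinc finger genes often come in near-identical copies, among which reads cannot always be placed, so the fold at these sites is uncertain.

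The next question was how the intervals were shared out among genes. The locus of a gene was the stretch whose nearest gene end was its own, up to 100 kb away, and 81064 intervals (88.9%) fell into loci. The other 10164 were over 100 kb from every end, 3722 of them inside long genes. A locus held a median of 2 intervals (middle 50% 1 to 5), or 5.23 per 100 kb of locus. Intervals were uneven: the 2188 genes with the most held 38.2% of the placed intervals on 22.0% of the locus sequence. At 1986 genes (9.07%) 10 or more intervals were found, and at 4490 (20.5%) none. Longer loci held more in number and fewer per length. The fifth of genes with the shortest loci (median 11.2 kb) had a median of 1 interval and 11.2 per 100 kb, and the fifth with the longest (199 kb) had 5 and 2.67. Across the 21887 genes, which are not independent replicates, Spearman's rho of count with locus length was 0.47 and of density −0.28.

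Septin9, a cytoskeletal GTPase gene, had the most intervals of any gene, with 44 in 2iL against 46 at 48 h and 40 at 96 h. Cacna1a, a calcium channel subunit, followed with 41, 39 and 31. Epb41l4a had 41, 38 and 22, and Med13l, a subunit of the Mediator kinase module, 41, 42 and 27. Gli2, a transcription factor of the Hedgehog pathway, had 39, 34 and 25. Myo10, a myosin of filopodia, had 39, 28 and 25, and Ppp2r5c, a regulatory subunit of the phosphatase PP2A, 39, 25 and 20. These leaders were long genes, and their counts at 48 h were in part as high as in 2iL.

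The remaining leaders included chromatin and signalling genes. Zfp64, a zinc finger factor, had 39 intervals in 2iL, 33 at 48 h and 18 at 96 h. Map4k3, a kinase gene, had 37, 19 and 10, and Prex1, an exchange factor for RAC, 37, 34 and 29. Plekha7, of adherens junctions, had 36, 24 and 25, Zfp704 had 36, 20 and 12, and Tcf7l1, the repressor named above, 36, 20 and 20. Zmynd8, a reader of histone marks, had 35, 34 and 28 and the highest density of the 20 genes, 21.3 per 100 kb. Pkp4, a plakophilin of cell junctions, had 35, 13 and 4, the largest excess over both later lists of any gene. The other 5 of the 20 were Arl15, Cradd and Grik3 with 35 each, and Arid5b and Msi2 with 34 each.

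The 20 genes were long, and each had a gene-end summit. Their bodies measured 62.3 to 378.9 kb and their loci a median of 279 kb, against 17.2 kb and 46.4 kb over all genes. All 20 had a summit within 1 kb of an end, against 66.2% of all protein-coding genes (14491 of 21887). The latter include the 20.5% of genes with no interval in their locus. Picking genes by a high 2iL count favours a gene-end summit, so this share only describes the 20. Of their 748 intervals 508 (67.9%) lay inside the gene, against 41688 of the 81064 intervals placed in all loci (51.4%). The 2iL count was above both later counts in 17 of the 20, against 5349 of all 21887 genes. Picking genes by their 2iL count favours such an excess, and the 2iL list was the longest. Septin9 and Med13l were highest at 48 h, and Grik3, a glutamate receptor subunit of neurons, had 39 at 48 h and 41 at 96 h against 35. Density picked other, smaller genes. Among loci of 20 kb or more with at least 5 intervals, Slc29a1, a nucleoside transporter, had 47.5 per 100 kb from 10 intervals, Plaur, the urokinase receptor, 42.8 from 11, and Grasp 41.0 from 10. Gbx2, a homeobox target of LIF and STAT3, had 35.0 from 7, and Id1, a target of BMP signalling that blocks differentiation factors, 34.5 from 8.

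**Figure D4:**
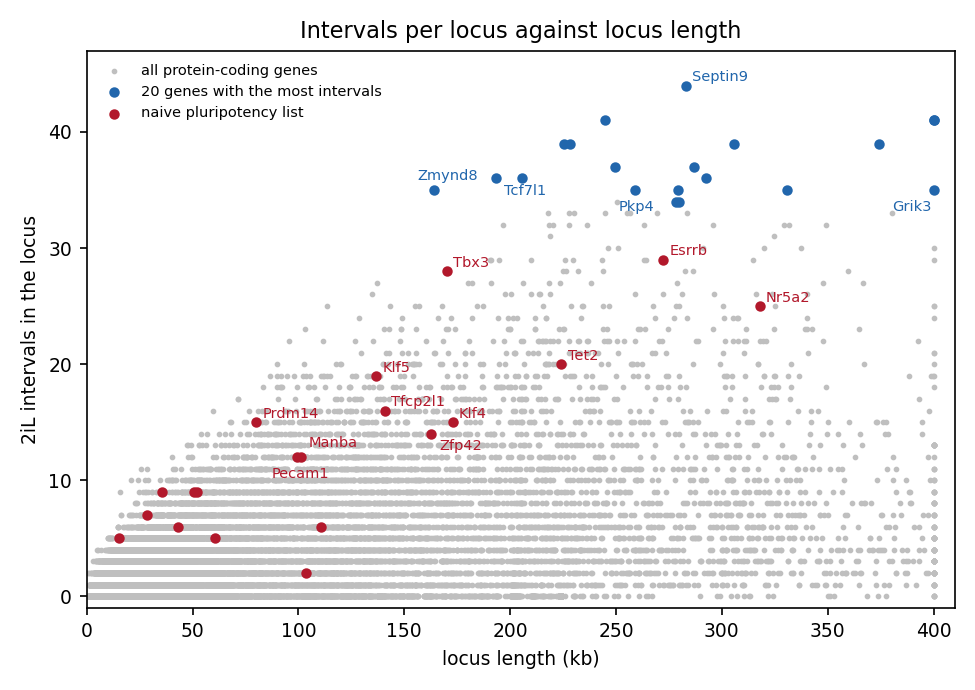
Number of 2iL intervals in a gene's locus (y axis) against locus length in kb (x axis). Grey points are all 21887 protein-coding genes, blue points the 20 genes with the most intervals (34 to 44) and red points the 20 naive pluripotency genes (2 to 29), of which those with 12 or more are named.

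Genes with many more intervals in 2iL than in either later list were named by their excess. An excess of at least 3 intervals and 1.5 times over both lists was found at 1068 genes (4.88%), and a shortfall of the same size at 453 (2.07%). A locus with 0, 1 or 2 intervals in 2iL cannot show such an excess, and these were 20.5%, 17.2% and 14.7% of genes. After Pkp4, with 22 more than at 48 h, came Rai14 with 33 against 12 and 9, Map4k3, and Etv6, an ETS repressor, with 32 against 15 and 9. Foxo3, a forkhead factor inhibited by AKT, had 29 against 13 and 7, and Ak4, a mitochondrial adenylate kinase, 21 against 5 and 5. Arntl, a core clock gene, had 32 against 18 and 12. The 2iL list was also the longest of the 3. At equal list length 688 genes (3.14%) met the rule.

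The 20 genes of a naive pluripotency list lay in loci rich in 2iL intervals. They held 263 intervals, a median of 12 per locus and 11.99 per 100 kb, against 2 and 5.23 over all genes, and medians of 7.5 and 6 per locus at 48 h and 96 h. Their loci were longer too, at a median of 102.3 kb. Of the 20, 11 had 10 or more intervals, against 9.07% of all genes. The 2iL count exceeded both later counts by the rule above at 8 of 20 and fell short at 0, against 4.88% and 2.07% of all genes, and at equal list length it did so at 6 against 3.14%. The list was chosen with earlier results of these data known, so these counts are a description. The shares over all genes also include loci with too few 2iL intervals to meet the rule for excess. A higher share, here or in the lists below, thus partly restates that the loci held many intervals. At 18 of the 20 a summit lay within 1 kb of an end, against 66.2% of all genes.

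Esrrb, an orphan nuclear receptor that replaces part of NANOG's function, had the most, with 29 intervals in 2iL, 28 at 48 h and 17 at 96 h. Of these 29, 24 lay inside the gene (chr12:86361117-86521628) and 10 overlapped no later interval. Over the whole 2iL list 27369 of 91228 intervals overlapped none, and 36.9% of those inside genes. The interval of highest fold, 18.6, lay 41.8 kb into the annotated gene and had 15.5 and 10.2 later. From the inner start onward 22 intervals followed each other over 104.6 kb with gaps of at most 12500 bp, which was more than in 99.5% of such stretches. Esrrb and Nr5a2 were the only list members with no 2iL summit within 1 kb of an outer end, and for both a 2iL interval overlapped the inner start printed above.

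Nr5a2, a nuclear receptor able to drive Pou5f1, had 25 intervals in 2iL, 19 at 48 h and 13 at 96 h. They fell in separate groups. All 6 upstream of its annotated start, up to 48.4 kb away, were in 2iL alone, whereas 6 of those beyond its other end, 121 to 211 kb from the start, overlapped intervals of both later lists. The highest fold, 15.3, lay in that far group, with 16.1 and 16.7 later. Tbx3, a T-box factor of the naive state, had 28, 19 and 15. Of its 28 intervals 12 were in 2iL alone, against 27369 of all 91228.

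The KLF factors varied. Klf5 had 19 intervals in 2iL, 11 at 48 h and 6 at 96 h, Klf4 15, 7 and 7, and Klf2, whose locus is short at 43.1 kb, 6, 6 and 3. At Klf4 (chr4:55527137-55532475, minus strand) the interval of highest fold, 21.4, lay 51.3 kb before the start and overlapped no later interval. A group around 51.3 to 68.1 kb after the start held 5 intervals, of which those at 51.9, 54.7 and 68.1 kb had folds of 5.69, 5.26 and 13.7 in 2iL and 15.98, 13.5 and 14.8 at 96 h. The site 17.6 kb after the start had 14.95, 19.0 and 26.1 in the order 2iL, 48 h and 96 h. Folds come from separate lists with their own backgrounds, so an order between them is a description only. At Klf2 the interval at the start was the strongest, with 10.2.

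Zfp42, which encodes the marker REX1, showed a start that stayed listed beside distal sites that did not. Its 14 intervals in 2iL compare with 11 at 48 h and 2 at 96 h. The start interval (chr8:43306845-43307534) had folds of 18.7, 22.1 and 24.4. The 2iL site of highest fold, 20.2 at 13.9 kb before the start, had 9.21 at 48 h and was absent at 96 h. By −log10 p the start interval ranked above it in 2iL, at 1315 against 1070. Of the other 12 sites, 1 was listed at 96 h, 26.7 kb before the start, with 11.5 in 2iL and 8.34.

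Nanog and its neighbour Dppa3, an oocyte and germ cell factor also called Stella, each had 9 intervals in 2iL, 6 at 48 h and 6 at 96 h. Nanog's start interval (chr6:122707076-122707672) had a fold of 5.51 in 2iL, 7.32 at 48 h and 4.74 at 96 h. Its −log10 p in 2iL was 352, above the list median of 113. A site 4.81 kb before the start was stronger, at 9.52, 9.21 and 11.7. The site of highest fold in 2iL, 10.1 at 20.6 kb before the start, overlapped no later interval. By −log10 p that site, at 210, ranked below the start and below the site at 4.81 kb, which had 875.5. At Dppa3 the highest fold, 18.6, lay 3.33 kb from an end, and a site of 15.7 at 14.1 kb was in 2iL alone. Dppa3 had a summit within 1 kb of an end in 2iL and in neither later list.

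Tfcp2l1 and Tet2 lost more than 50% of their count by 48 h. Tfcp2l1, a CP2-family factor downstream of LIF, had 16 intervals in 2iL, 6 at 48 h and 7 at 96 h. Its start interval had a fold of 5.71 in 2iL, under the list median of 8.29, and 13.7 and 15.5 later. In 2iL its −log10 p was 309, above the list median of 113, so the low fold alone does not rank it as weak. A second, 1558 bp interval 1.25 kb before the start was in 2iL alone. Tet2, which oxidises 5-methylcytosine, had 20, 9 and 7. Its start interval, 1287 bp wide, had folds of 12.47, 11.2 and 12.8. Of the 20 intervals of Tet2 13 were in 2iL alone, against 27369 of all 91228. Among these 13 were sites of 14.2 and 14.5 at 20.3 and 38.4 kb after the start. A start that was listed throughout thus stood beside sites that were not, as at Zfp42.

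**Figure D5:**
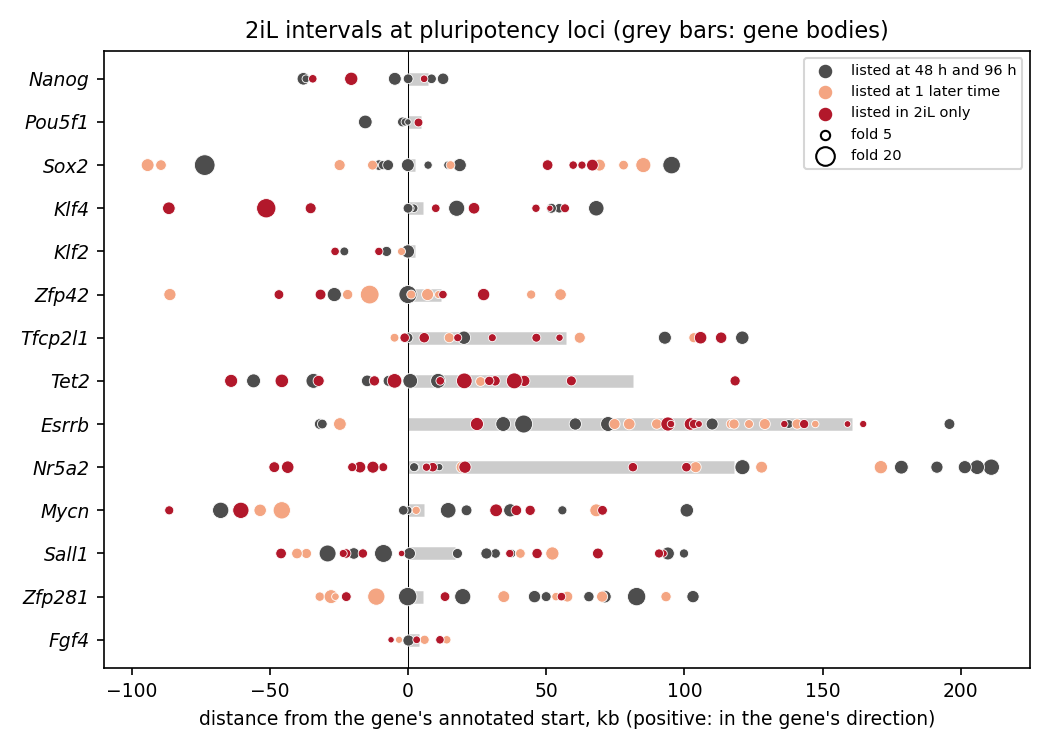
2iL intervals at 14 pluripotency genes with a known strand, by distance in kb of the best summit from the gene's annotated start (x axis), 1 gene per row, with grey bars for gene bodies. Point area is proportional to fold, and red points are in 2iL alone, such as the Klf4 site of fold 21.4 and all 6 intervals before the start of Nr5a2.

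The other naive loci ranged widely in density, from below to far above the 5.23 per 100 kb over all genes. Tdh, threonine dehydrogenase, an enzyme of mouse embryonic stem cell metabolism, had 9 intervals in 2iL, 3 at 48 h and 4 at 96 h, at 25.4 per 100 kb. Fgf4, the ligand that starts ERK signalling in these cells, had 7, 5 and 3 at 24.5 per 100 kb, and Dppa5a 5, 4 and 3 at 32.4. The locus of Dppa5a, at 15.4 kb, is under the 20 kb asked for in the density ranking above. Prdm14, which represses FGF receptor and DNA methyltransferase genes, had 15, 10 and 7, and its stretch of neighbouring intervals counted 20 over 94.9 kb. Manba had 12, 10 and 4, Pecam1, an adhesion molecule of naive cells, 12, 12 and 9, and Spp1 5, 5 and 3. Per 100 kb, Prdm14 had 18.7, Pecam1 12.1, Manba 11.9 and Spp1 8.24, while Tcl1 had 5.41 and Nr0b1 1.93. Tcl1, a coactivator of AKT, had 6, 8 and 5, and its start window was covered in 2iL and at 48 h but not at 96 h. Nr0b1, on the X chromosome, had the fewest, with 2, 1 and 1, but 1 of its intervals was 2391 bp wide with 7 summits.

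General pluripotency genes, active in naive and primed cells alike, had lower counts. The list of 16 had a median of 5.5 intervals in 2iL and 9.96 per 100 kb, with 6.5 and 6 intervals at 48 h and 96 h. None of the 16 exceeded or fell short of both later lists by the rule (4.88% and 2.07% of all genes), and 15 had a summit within 1 kb of an end (66.2% of all genes). Pou5f1 had 5 intervals in each list on a locus of 21.5 kb. Its start interval was only 230 bp wide with a fold of 2.40, and the highest fold, 10.8, lay 15.5 kb before the start. The sites 1.06 and 2.05 kb before the start had 3.80 and 5.54. By −log10 p the site at 2.05 kb ranked above the one at 15.5 kb, at 368 against 336. The 21 neighbouring intervals of the stretch around Pou5f1 covered 92.3 kb, more than in 99.5% of stretches, although most were nearer to other genes.

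Sox2 had 21 intervals in 2iL, 26 at 48 h and 17 at 96 h. Its start interval (chr3:34648792-34651351) was 2560 bp wide with 6 summits and a fold of 9.59. The site of highest fold, with 24.5 in 2iL, 23.6 at 48 h and 24.2 at 96 h, lay 73.6 kb before the start. A site 95.4 kb after the start had 17.7, 13.6 and 5.87, and its neighbour at 85.1 kb had 13.1, 11.8 and no interval at 96 h. Sall1 had 24, 26 and 13, Zfp281 20, 24 and 13, and Mycn 18, 14 and 11. Dppa4 and Dppa2, which sit side by side and act together, had 5 each in 2iL, 6 each at 48 h, and 0 and 2 at 96 h. Tdgf1, a NODAL coreceptor, had 1 interval, of 1938 bp and 7 summits. Sall4, with Atp9a and Zfp64, lay in a stretch of 62 intervals over 338.6 kb.

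Genes of the pathways that 2iL acts on also lay in dense loci. The WNT and beta-catenin list of 18 had a median of 11.5 intervals and 9.51 per 100 kb, with a gene-end summit at 17, against 66.2% of all genes. Tcf7l1 had 36, and its strongest site, with 12.7, lay 6.05 kb before the start. Its relatives Tcf7l2 and Lef1 had 32, 26 and 22, and 27, 26 and 18, in the order 2iL, 48 h and 96 h. Apc, of the complex that destroys beta-catenin, had 20, 16 and 10. Gsk3b, the gene of a CHIR99021 target, had 18, 11 and 6, and Ccnd1, cyclin D1, 14, 8 and 7. Tcf7l1, Gsk3b and Ccnd1 exceeded both later lists by the rule, 3 of 18 against 4.88% of all genes, and no gene of the 18 fell short. Axin2, a feedback target of WNT, was nearly level at 17, 16 and 16.

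The LIF and STAT3 list of 14 had a median of 9 intervals and 15.9 per 100 kb, with a gene-end summit at 13, against 66.2% of all genes. Sgk1, a kinase, had 21, 21 and 15, Lifr, the LIF receptor, 15, 11 and 10, and Pim1, a kinase and STAT3 target, 14, 11 and 9. Il6st, the receptor subunit gp130, had 7, 3 and 3, and Stat3 itself 6, 4 and 3. Socs3, the feedback inhibitor, was level at 11, 10 and 12. Il6st alone of the 14 met the rule for excess, which 4.88% of all genes met. In the FGF/ERK list all 16 genes had a gene-end summit, with a median of 10 intervals. Spred2, an inhibitor of RAS and RAF, had 31, 21 and 15, Myc 22, 16 and 10, Etv5, an ETS factor induced by ERK, 15, 13 and 9, and Spry2 13, 11 and 8. Fgfr2, a receptor, had 6, 17 and 23 and Dusp4, an ERK phosphatase, 4, 9 and 10, and these were the 2 of 16 that fell short of both later lists, against 2.07% of all genes.

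Lists of later cell states had fewer intervals per length than the naive list. Formative and primed genes had a median of 6 intervals, led by Lef1 and by Grhl2, an epithelial factor, with 22 in 2iL, 31 at 48 h and 20 at 96 h. Of the 19 genes, 3 fell short of both later lists, against 2.07% of all genes: Pou3f1 with 6, 19 and 13, Otx2, an early marker of the exit from naive pluripotency, with 8, 13 and 13, and Sox3 with 3, 7 and 7. Foxd3, a forkhead factor, exceeded both with 18, 11 and 10. Fgf5, a primed marker, had 2, 6 and 4. Neural ectoderm genes had a median of 5.5 and 5.57 per 100 kb. Sox1, an early neural factor, led with 16, 15 and 14, ahead of Pax7 with 15, 23 and 24 and Zfp521 with 13, 7 and 16, and Fabp7 had 0 in 2iL. Of the 22 neural genes 4 fell short, as did 3 of 12 definitive endoderm genes, such as Prox1 with 4, 13 and 11, against 2.07% of all genes. Endoderm counts were led by Trim33 with 14 and Foxa2 with 12. Mesoderm and primitive streak genes had a median of 6, with Gsc at 15, Eomes at 10 and Tbx6 at 0. The locus of Tbx6 is only 4.71 kb long, and a summit of an interval placed at another gene lay within 1 kb of its end. A gene-end summit was nonetheless present at 19 of 22 neural genes, 10 of 12 definitive endoderm genes and 15 of 16 mesoderm genes in 2iL, against 66.2% of all genes. The list of genes of the 2-cell embryo had no gene-end summit at any of 9 genes and 9 intervals in all, 5 of them at Zfp352, which had 0 at 48 h and 1 at 96 h. Zscan4f, Usp17la, Usp17lc and Tdpoz4 had 0 in 2iL, and several of these genes have near-identical copies, so a missing interval may also reflect reads that map to more than 1 place. Germline genes silenced by DNA methylation had a median of 1 interval and a gene-end summit at 9 of 15, with 9 intervals at Zbtb16, 5 at Dazl and 0 at Slc25a31 and Rhox1.

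Markers of other cell types were counted too, and over all genes the median was 2 intervals with a gene-end summit at 66.2%. Trophoblast genes had a median of 5.5 intervals with a gene-end summit at 9 of 12, near the share of all genes, and Tfap2c, shared with naive and germ cells, had 23, 15 and 12, Tfap2a 16 in 2iL and Prl3d1, a placental hormone, 0. Extraembryonic endoderm genes had 5.5, with 8 of 12, also near it, led by the laminin gene Lama1 with 12 and the collagen gene Col4a2 with 11. Fibroblast markers, which would stand for feeder cells, had a median of 3, led by the collagen genes Col1a2 with 11 and Col1a1 with 8, a gene-end summit at 6 of 12 and no interval at Dcn, Lum and Fap. Accessibility at a gene end is no measure of its RNA, so these counts do not give the share of such cells. The general pluripotency list also had a median of 5.5, so counts of this kind could not check the cell type. Of 20 housekeeping genes 17 had a gene-end summit, with a median of 2 intervals on short loci and 14.4 per 100 kb. Ywhaz, an adaptor protein gene, had 29, and Hprt and Rps18 had 0 placed in their loci. A summit of an interval placed at another gene nonetheless lay within 1 kb of an end of Rps18. The TET and DNMT list with Uhrf1 had a median of 8, with Tet1 at 15, 13 and 12, and Tet2 and Dnmt1 (7, 3 and 3) exceeded both later lists, 2 of 8 against 4.88% of all genes.

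Gene families ranged on both sides of the shares over all genes, 66.2% with a gene-end summit and 20.5% with no interval. Of 1110 olfactory receptor genes 25 had a gene-end summit and 937 had no interval in their locus, and of 353 vomeronasal receptor genes 3 and 282. Beta-defensins had a gene-end summit at 5 of 42 and keratins at 16 of 53. Above the share of all genes, 88 of 97 ribosomal protein genes, 38 of 40 proteasome genes, 335 of 397 Zfp genes, 29 of 39 Hox genes, 16 of 17 Klf and 19 of 19 Sox genes had one. Sox genes had a median of 4 intervals and Klf genes 8. Among the longest loci with 0 intervals in 2iL, all at the limit of 400 kb, were the adhesion genes Cdh12 and Cntn6, Lrrc4c, Agbl1 and Nyap2. Their bodies run from 291.2 kb at Nyap2 to 1313.5 kb at Lrrc4c. Parts over 100 kb from an end were not counted, so 0 does not cover the whole gene. Cntn6 had 0 in each list, and the others had 3 to 5 at 48 h and 3 to 7 at 96 h.

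Intervals clustered along chromosomes. The gap between neighbouring intervals had a median of 8.58 kb, and 61.6% of gaps were at most 12500 bp. Joining intervals across such gaps gave 35002 stretches, of which 18428 (52.6%) were a single interval and 1413 held 10 or more, with 21365 intervals (23.4%) between them. The largest counted 78 intervals over 394.8 kb of chromosome 3 (chr3:89132329-89527155), from Pklr to Kcnn3, with the ephrin genes Efna1, Efna3 and Efna4 and Muc1 among 29 genes. Gene density and long single genes both made stretches: 65 intervals on chromosome 10 ran past 22 genes, and 62 on chromosome 2 past the 3 genes around Sall4. The X chromosome stood apart, with 14.4 intervals per Mb of locus against 40.8 to 70.5 on autosomes, and 46.5% of its genes had a gene-end summit against 57.3% to 75.4%. The Y chromosome had 17 intervals. Copy number and the share of sequence to which short reads map differ for X and Y, and their part was not tested.

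MicroRNA genes of pluripotent cells lay in accessible chromatin too. The miR-290 cluster, expressed in naive cells, and the miR-302 cluster, more typical of primed cells, are shown by mature sequences from RefSeq (GRCm38.p6). Some members of both have other seeds, such as miR-293-3p with GUGCCGC and miR-367-3p with AUUGCAC. Those printed were picked because they carry the same or a nearly identical seed, bases 2 to 8, given in capitals.
mmu-miR-294-3p: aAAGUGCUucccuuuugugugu
mmu-miR-295-3p: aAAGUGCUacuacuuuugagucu
mmu-miR-302b-3p: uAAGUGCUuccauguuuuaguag
mmu-miR-302d-3p: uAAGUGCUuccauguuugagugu
mmu-miR-291b-3p: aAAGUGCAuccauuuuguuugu
mmu-miR-290a-3p: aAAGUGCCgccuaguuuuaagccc

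The first 4 share the seed AAGUGCU, and the other two differ from it in the last base of the seed. The hairpins of the miR-290 cluster (chr7:3218626-3220841) had 5 best summits within 10 kb in 2iL, 4 at 48 h and 4 at 96 h. Within 20 kb lay 11 intervals, the strongest with a fold of 10.2 in 2iL and of 15.4 and 18.1 later. Of the 11, 3 were in 2iL alone, against 27369 of all 91228 intervals. The miR-302 hairpins on chromosome 3 had 3, 4 and 6, an order opposite to that of the miR-290 cluster. Over all 1005 hairpins of the RefSeq table the median was 2 within 10 kb, and 243 (24.2%, 21.6 to 26.9) had a summit within 1 kb.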

How the data were processed

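ATAC-seq of 6 samples gave 3 deposited peak lists, 1 for samples A and B of each group together. Each library came from 100000 live cells, 10 PCR cycles and gel-selected fragments of 200 to 700 bp, per the labels' protocols. Per the submitters' processing notes, mm10, Picard, SAMtools, BWA and bcl2fastq 2.20.0.422 were used, in roles not stated there. Which program called peaks, with what settings and read shift, is not given in the sources used here, and each could change which weak intervals are listed. In the deposited lists fold is a ratio on a linear scale. The authors gave p as −log10. Score, also deposited, is 1 whole number for an interval. Summit offsets are the authors' deposited positions, in another unit, bp from the interval start. Columns of per-sample values left unused numbered 0.

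Lines with the same interval were joined, and the best summit placed the interval at the nearest end of a protein-coding gene (RefSeq table, 21887 genes). Starts, strands and sequences came from the RefSeq promoter table. Of 242 entries in 16 gene lists, 241 matched. Genes named in full were the 20 with the most intervals, the 15 densest, the 10 farthest above both later lists, the 5 longest loci without intervals, the genes at the 10 widest and strongest intervals, all naive and general pluripotency genes, and the leading and empty members of the other lists. Further members of those lists were named after their values were seen. The genes, lists and rules were chosen with earlier results of these data known. Depth was estimated by solving fold and p for whole tag numbers at the 87.7% of 2iL summits with −log10 p under 290. Of these, 100% gave a whole number within a tolerance of 0.02. On simulated data the counting recovered 200 of 200 genes. Simulated positions were kept only where an end of the chosen gene was nearest, so that result checks the code alone. With 1 list per group no test was fitted. Alternatives were other windows, loci, strength limits and list lengths. Python 3.11.15, pandas 2.3.3, numpy 2.4.6 and scipy 1.17.1 were used.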

Additional observations from a re-analysis of the deposited data

How the results depend on the processing

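The gene-end share of 2iL intervals, 16.6%, moved to 26.3% among intervals above the median −log10 p, 13.3% with a 500 bp window, 21.7% with 2 kb, 22.6% over all summits, 22.2% with every gene of the table and 12.8% with starts alone. The width ratio of 1.60 moved to 1.39 among intervals above the median −log10 p, 1.63 with 500 bp and 1.51 with 2 kb, and to 1.06 for intervals with 1 summit. Intervals with several summits rose from 59.9% to 75.6% above the median −log10 p. Genes with a summit at an end, 66.2%, became 58.8% above the median, 61.9% with 500 bp and 71.2% with 2 kb. The naive list's median of 12 intervals became 5 above the median (1 over all genes), 6.5 within 20 kb (2) and 22 when summits were counted (5). Its density of 11.99 became 4.80 (2.49) and 25.8 (11.02). Of the 20 genes with the most intervals, 7 stayed among the 20 above the median −log10 p, 2 within 20 kb of an end and 2 when gene bodies were counted, where Tenm4 led with 60, so that ranking depends on the definition of a locus. The difference from 48 h was −2.05 points with 2 kb and from 96 h −1.14 at equal list length. The last choice, applied to the naive genes above both later lists, was added after seeing the data and gave 6 against 8. In all 24 alternatives moved a value and 7 did not, judged by counting error where a share, ratio or difference has one and otherwise by a factor of 1.5, and none changed a direction. No paired analysis was possible because each group has 1 list for samples A and B together. Depth limits the weak end of the list: a site absent from a list may lie just under its threshold.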
